A study of Mus musculus with 14 samples.

Results

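The genes described here are 44 mouse genes whose products act in the lysosome, taken from the deposited gene counts by symbol. All 44 symbols were found among the 55291 gene rows, and all 44 had enough counts to be tested. They fall into 10 proteases, 9 glycosidases, 5 sulfatases, 6 lipid hydrolases or activators, 1 luminal glycoprotein, 9 membrane proteins and 4 genes of enzyme sorting or lysosomal transcription. Of these, 6 (Ctss, Ctsz, Ctsc, Ctsh, Cd68 and Laptm5) are known to be enriched in microglia, the resident macrophages of the brain, and the other 38 were treated as ubiquitous.

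RNA sequencing of polyadenylated transcripts was done on single dentate gyri excised from organotypic entorhino-hippocampal cultures, which are brain slices kept alive on a membrane with the entorhinal cortex and hippocampus together. The 6 wildtype libraries came from C57BL/6J (APP+/+) animals and the 8 APPko libraries from animals lacking the amyloid precursor protein in all cells (APP-/-), for which the labels give no strain background. Cultures were made at postnatal day 4 to 5 and kept for at least 18 days, and 1 dentate gyrus entered each library. The labels call the libraries biological replicates but do not say which cultures share an animal, so a p-value measures the spread between these libraries. The tissue is a mixture of cells, in which fewer cells of a type and less RNA per cell cannot be told apart.

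Lysosomes are acidic organelles in which hydrolases break down proteins, glycans, glycosaminoglycans and lipids. Soluble enzymes are tagged with mannose 6-phosphate in the Golgi apparatus and carried by mannose 6-phosphate receptors, and a heavily glycosylated membrane (Lamp1, Lamp2) shields the cell from them. The transcription factor TFEB drives many of these genes through a palindromic E-box, CACGTG. In the brain all cells have lysosomes, but microglia, which take up debris, carry an especially large load, and inherited loss of single enzymes causes lysosomal storage diseases with neurodegeneration. Amyloid precursor protein and its fragments are themselves degraded in lysosomes, by cathepsins among others.

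The promoters of these genes were searched for that sequence. RefSeq promoters (GRCm38.p6, 250 bases before to 50 after the annotated start) were matched for 38 of the 44 genes, with 42 promoters between them. CACGTG, a palindrome that reads the same on both strands, was found in 13 of the 42 (31%) and in 2349 of all 32851 promoters of that length (7.15%). The 8-letter form TCACGTGA, which contains CACGTG, was found in 5 of the 42 (11.9%), those of Ctsa, Ctsd, Gla, Igf2r and Mcoln1, against 0.974% of all. The following stretches are shown because they hold 1 or more copies of the E-box, in capitals, upstream of the RefSeq start. They are Lamp1 (chr8:13159088-13159160, plus strand), Ctsa (chr2:164833749-164833772, plus strand), Ctsd (chr7:142387908-142387937, minus strand), Igf2r (chr17:12769707-12769766, minus strand) and Gla (chrX:134601182-134601244, minus strand).
Lamp1: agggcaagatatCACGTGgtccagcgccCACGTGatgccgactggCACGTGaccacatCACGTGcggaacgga
Ctsa: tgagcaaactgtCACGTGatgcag
Ctsd: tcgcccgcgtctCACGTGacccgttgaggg
Igf2r: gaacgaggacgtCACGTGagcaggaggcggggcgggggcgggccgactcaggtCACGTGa
Gla: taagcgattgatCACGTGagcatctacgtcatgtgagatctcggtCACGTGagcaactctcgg

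The Lamp1 promoter holds 4 copies within the 73 bases before its start, more than any other of the 38 genes, while Ctsa, Ctsd, Gla, Igf2r and Mcoln1 hold 2 each. In the annotation deposited with the counts (GENCODE M25), the Ctsa and Ctsd stretches lie inside the annotated gene, which starts further upstream. None of the 5 microglia-enriched genes with a promoter entry held CACGTG, and 2 of the 5 held GAGGAAGT or its reverse complement, a purine-rich sequence of the kind bound by the macrophage factor PU.1, against 3.20% of all promoters. The ubiquitous genes Gla and Gusb held it too, giving 4 of the 42 promoters (9.52%). In Ctsc that match lies upstream of the start (chr7:88277922-88277953, plus strand, match in capitals on the opposite strand), whereas in Ctss it straddles the start.
Ctsc: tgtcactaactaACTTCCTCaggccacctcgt
A match is a description of the letters and shows no binding.

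**Figure D1:**
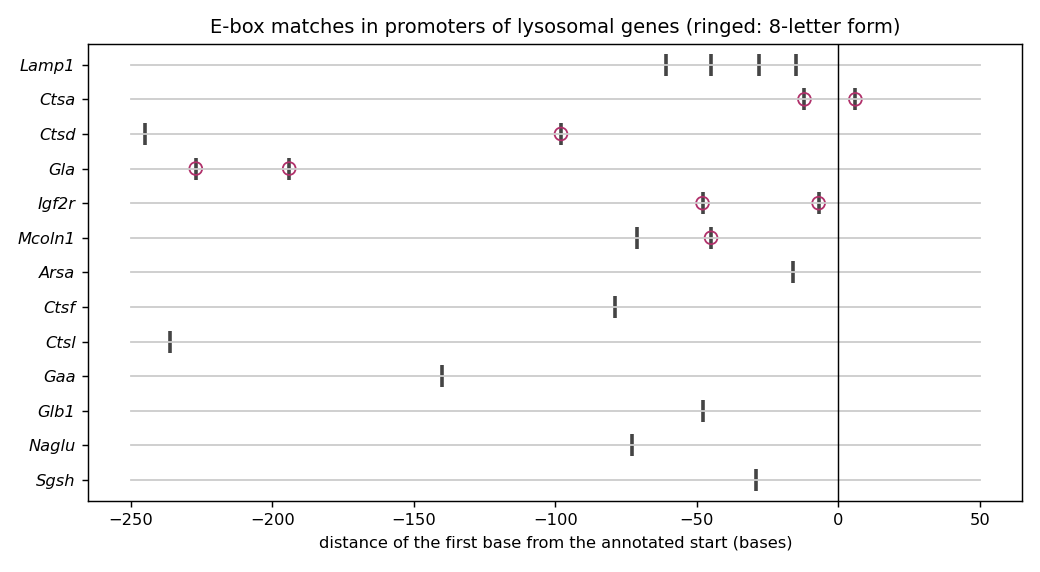
Position of each CACGTG match in the 13 promoters that hold one, as the distance of its first base from the annotated start (vertical line), with rings around matches of the 8-letter form. Lamp1 carries 4 matches close to its start, and 5 genes carry 2.

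The levels of the lysosomal genes in wildtype ran from 0.107 to 291 CPM per kb. Levels are given as CPM, the share of a library's counts scaled to a common total and by trimmed-mean (TMM) factors, and, to compare genes, as CPM per kb of exon. The gene with the highest level was Ctss, encoding cathepsin S, a microglial cysteine protease, at 291 ± 71.5 CPM per kb (SD, n = 6). Next came Ctsb (cathepsin B, 136 ± 42.4), Cd63 (a tetraspanin of late endosomes and exosomes, 115 ± 10.1), Ctsd (cathepsin D, the main aspartic protease, 93.5 ± 27.6) and Lamp1 (68.9 ± 8.83 CPM per kb). From Ctsb down to Lamp1 and Cd68 (65.6 ± 21.8 CPM per kb), each gene differed from the next by less than the larger of their SDs, while Ctss and Ctsb differed by more. At the other end stood Igf2r, the large mannose 6-phosphate receptor (2.27 CPM per kb), Galc, the galactosylceramidase (2.03), Arsa, the sulfatidase (1.83), Sgsh, the heparan N-sulfatase (0.448), and Tfeb itself (0.107 CPM per kb). Tfeb was thus the least abundant of the 44 per length, and its levels rest on few counts per library.

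**Figure D2:**
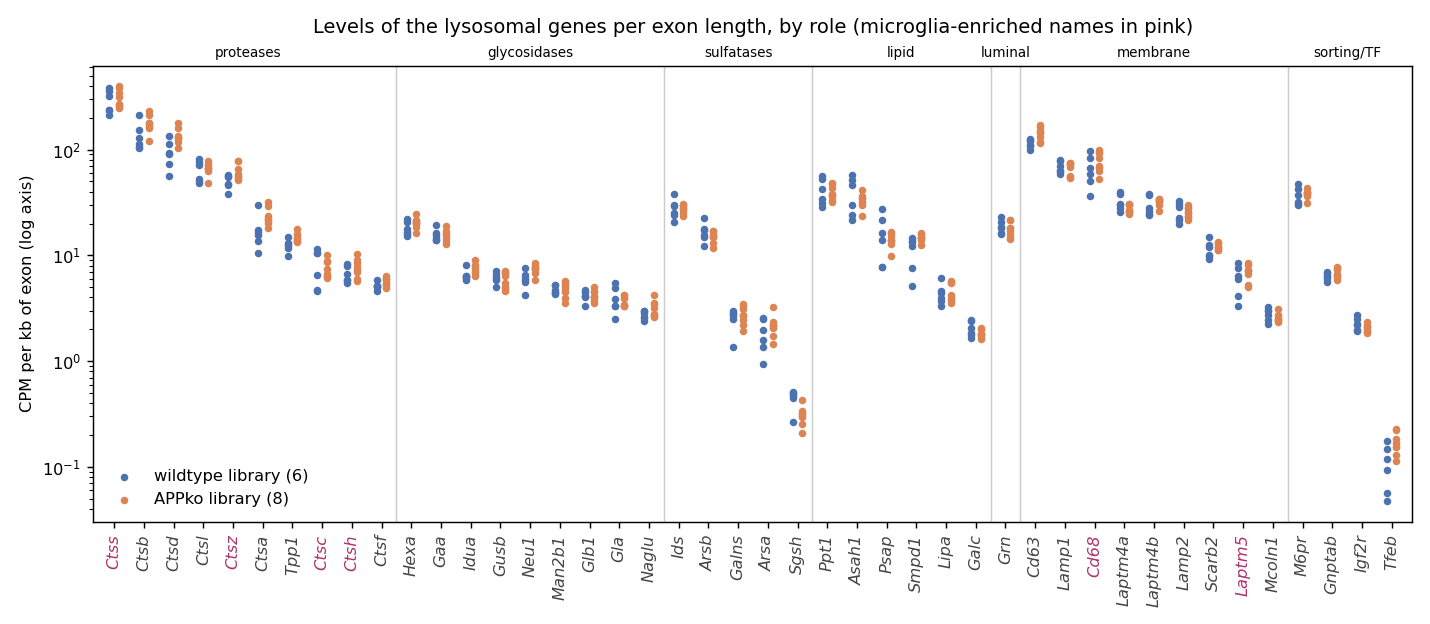
Level of each gene per kb of exon (log axis) in the 6 wildtype and 8 APPko libraries, ordered by role and then by wildtype mean, with microglia-enriched genes named in pink. Cathepsins and Cd63 lead, Sgsh and Tfeb are lowest, and the ranges of both genotypes overlap for every gene.

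The series compares the dentate gyrus with and without APP. App itself, on chromosome 16, fell from 809 ± 131 CPM (SD, n = 6) in wildtype to 214 ± 17.9 CPM (n = 8) in APPko, a log2 change of -1.92 ± 0.11 (SE; edgeR quasi-likelihood test with Benjamini-Hochberg adjustment over 22150 genes, adjusted p = 9.2e-09), and all APPko libraries lay below all wildtype libraries. Totals ran from 16686909 to 31031126 counts per library. The TMM factor was 0.852 in wildtype library 2 and 0.847 in wildtype library 3, below the other 12 libraries (at least 0.976), and the genes and groups that shifted most when both were left out are also given without them.

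None of the 44 lysosomal genes passed an adjusted p of 0.05 in edgeR, in either direction. Of all tested genes, 0.944% were called higher and 1.41% lower in APPko. At an unadjusted p under 0.05, 8 lysosomal genes were higher (Ctsd, Cd63, Tpp1, Neu1, Ctsz, Ctsa, Ctsb and Smpd1) and 1 was lower (Sgsh), where 9.07% and 11.4% of all genes were. For none of the 44 did all 8 APPko libraries lie above, or all below, the 6 wildtype libraries, a pattern shown by 0.506% and 0.609% of all genes. DESeq2 called Ctsd and Cd63 higher and no gene lower, with 3.33% and 4.64% of all genes called, and limma voom with sample weights called none of the 44. The largest fitted changes were 0.65 for Tfeb and -0.53 for Sgsh on the log2 scale.

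27 of the 44 genes had a higher fitted level in APPko (61.4%, against 48.3% of all tested genes), with a median log2 change of 0.077 against -0.013 over all genes. The 38 ubiquitous genes had a median of 0.054 (22 of 38 higher) and the 6 microglia-enriched genes one of 0.20 (5 of 6 higher). Without wildtype libraries 2 and 3 these medians were 0.087 and 0.28. For 29 of the 44 genes the 95% interval of the change lay within -0.5 to 0.5 on the log2 scale, and for 43 within -1 to 1; the exception was Tfeb.

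**Figure D3:**
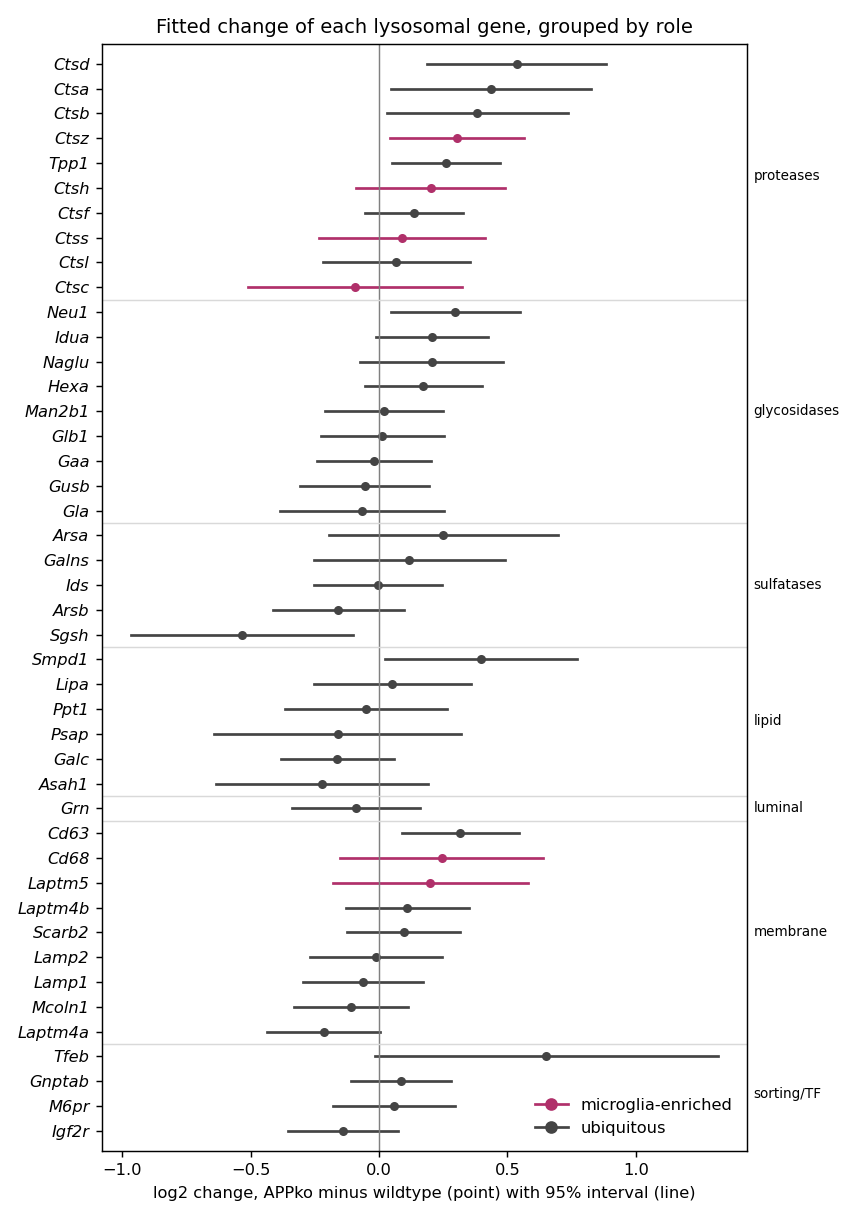
Fitted log2 change (APPko minus wildtype, edgeR) of each of the 44 genes with its 95% interval, grouped by role, with microglia-enriched genes in pink. Of the 10 proteases 9 lie above 0, the lipid group lies on both sides of 0, and no gene passed the adjusted threshold.

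Proteases digest proteins in the lumen, and 9 of the 10 had a higher fitted level in APPko, with a median log2 change of 0.23, the highest of the roles with more than 1 gene. 5 of them had an unadjusted p under 0.05 and none an adjusted one. Of all tested genes, 48.3% had a higher fitted level and 9.07% were higher at an unadjusted p under 0.05. Ctsc, Ctsh, Ctss and Ctsz are counted both here and among the microglia-enriched genes. The count of 9 of 10 stayed at 9 or 10 under each other scaling of the libraries, and was 8 without wildtype library 5 and 7 both with the microglia marker level as a covariate and in the libraries whose column header ends in f. With that covariate the median was 0.11.

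Ctsd (chr7:142375911-142388038, minus strand, GRCm38) encodes cathepsin D, which is needed for lysosomal turnover of proteins in neurons. Its wildtype libraries 1 to 6 read 315, 133, 171, 215, 219 and 265 CPM, and its APPko libraries 1 to 8 read 424, 373, 314, 312, 278, 244, 302 and 302 CPM. Wildtype libraries 2 and 3 were the lowest of the 14, wildtype libraries 1 and 6 lay within the APPko range, and 2 of 8 APPko libraries lay above every wildtype library. The means were 220 ± 64.8 CPM (SD, n = 6) and 319 ± 55.8 CPM (n = 8), a log2 change of 0.54 ± 0.17 (SE; edgeR adjusted p = 0.082). This was the smallest adjusted p of the 44. Without wildtype library 1 the gene was called, at a log2 change of 0.68, in a fit that called 387 of 22732 genes higher. Without libraries 2 and 3 its change was 0.33 and it was not called, in a fit that called 19 of 23764 genes higher. 34.4% of the exon bases of Ctsd are shared, on the same strand, with the gene model Gm49369, so reads there could be assigned to either or dropped.

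Ctsb (chr14:63122462-63145923) encodes cathepsin B, a cysteine protease. It read 626, 637, 925, 1295, 773 and 684 CPM in wildtype libraries 1 to 6 and 1085, 1390, 738, 1278, 1092, 977, 990 and 1040 CPM in APPko libraries 1 to 8. Wildtype library 4 was the second highest of all 14 and APPko library 3 sat among the wildtype values, so the groups overlapped. The means of 823 ± 256 and 1074 ± 197 CPM gave a log2 change of 0.38 ± 0.17 (SE; edgeR adjusted p = 0.20). Without wildtype library 4 the change was 0.56 and passed the threshold. That fit called 735 of 22579 genes higher, against 209 of 22150 in the main fit. On the opposite strand, 12.8% of the Ctsb exon bases overlap Fdft1.

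Ctsa, on chromosome 2, encodes cathepsin A, a serine carboxypeptidase that also protects beta-galactosidase and neuraminidase in a complex. It showed the same layout, with wildtype values of 64.8, 49.6, 73.9, 143, 82.8 and 79.0 CPM and APPko values of 105, 150, 84.7, 138, 111, 96.0, 103 and 101 CPM. Wildtype library 4 again lay among the highest, and the other 5 wildtype libraries lay below all 8 APPko libraries. The log2 change was 0.44 ± 0.19 (SE; edgeR adjusted p = 0.19), and without wildtype library 4 it was 0.67 and was called. It was 0.27 without wildtype libraries 2 and 3, 0.24 with the trend over GC content removed and 0.13 with the microglia marker covariate, and was called in none of these. Its partner in the complex, Neu1 (neuraminidase 1, a glycosidase), had a log2 change of 0.30 ± 0.12 (SE; edgeR adjusted p = 0.17), from 22.4 ± 4.21 to 27.5 ± 2.89 CPM (0.18 without wildtype libraries 2 and 3), while Glb1 (beta-galactosidase) was level at 12.5 ± 1.46 and 12.6 ± 1.47 CPM.

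Tpp1 encodes tripeptidyl peptidase 1, the enzyme missing in CLN2 disease. It went from 64.2 ± 8.93 to 77.0 ± 7.55 CPM, a log2 change of 0.26 ± 0.10 (SE; edgeR adjusted p = 0.15), with 3 of 8 APPko libraries above every wildtype library. Among the remaining ubiquitous cathepsins, Ctsf had a log2 change of 0.14 and Ctsl one of 0.068, the latter with 412 ± 94.0 against 432 ± 56.6 CPM. Without wildtype libraries 2 and 3 the Ctsl change was 0.23. 26.8% of the Ctsl exon bases overlap an antisense gene, Gm47123, and the strand setting of the counting is not given in the sources used here.

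**Figure D4:**
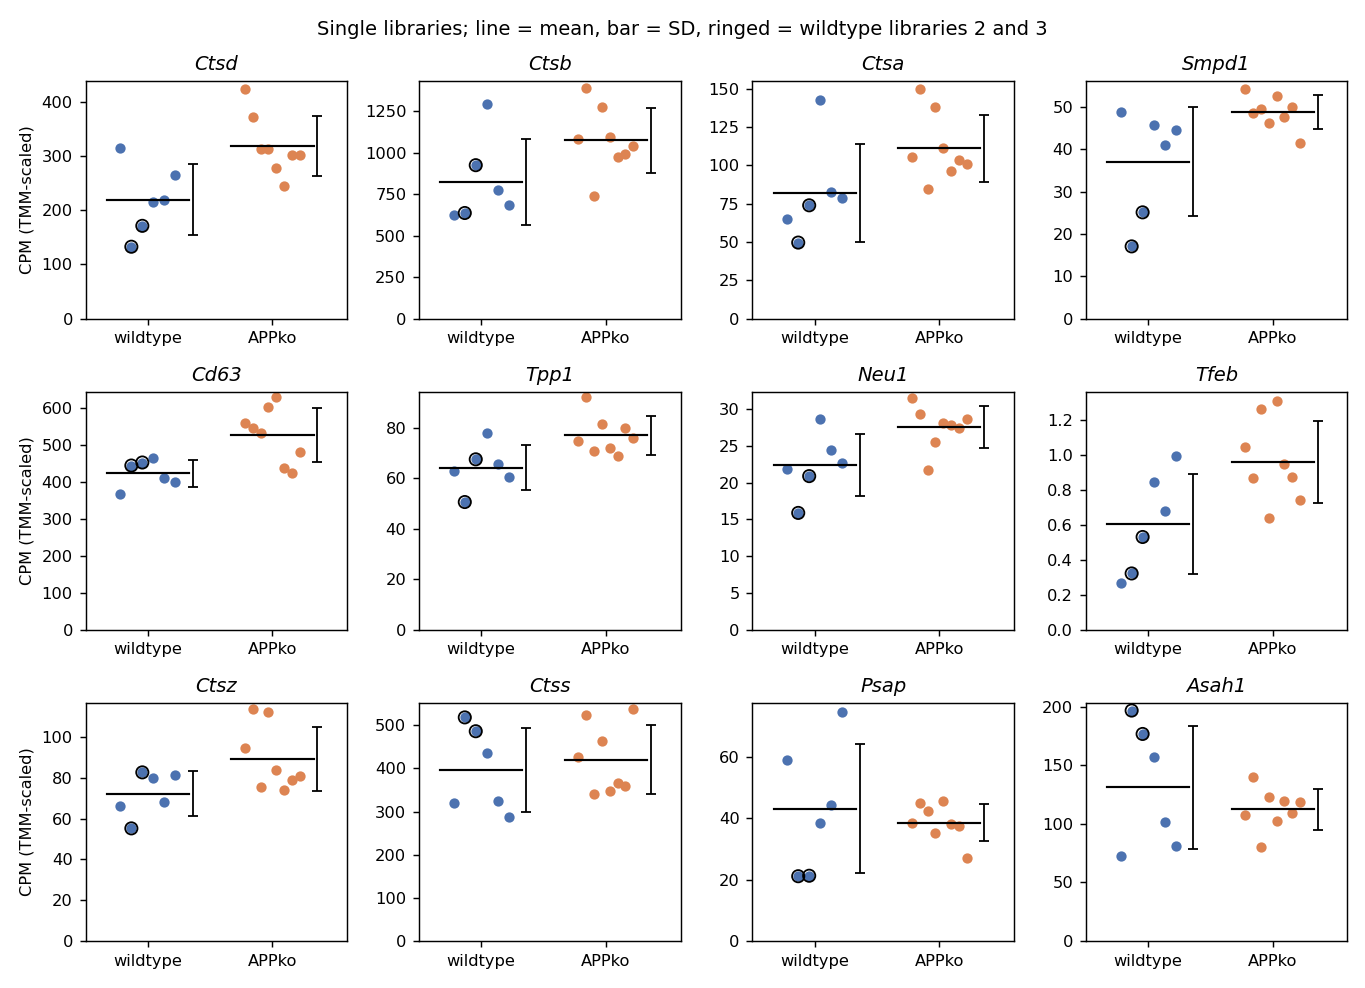
CPM of 12 lysosomal genes in each wildtype and APPko library, with the mean (line) and SD (bar) of each group and rings around wildtype libraries 2 and 3. The groups overlap for every gene shown, and the ringed libraries are the 2 lowest wildtype values for Ctsd, Smpd1, Neu1 and Psap and the 2 highest for Ctss and Asah1.

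Glycosidases trim sugars from glycoproteins, glycolipids and glycosaminoglycans, and as a group they stayed near 0, with a median log2 change of 0.019 (0.12 without wildtype libraries 2 and 3). Neu1 was the 1 member of the 9 with an unadjusted p under 0.05. Its wildtype libraries read 21.8, 15.9, 20.9, 28.7, 24.5 and 22.7 CPM and its APPko libraries 31.5, 29.4, 21.8, 25.6, 28.1, 27.9, 27.5 and 28.7 CPM. Wildtype library 2 was the lowest and APPko library 3 the only knockout library below 25 CPM. Idua (alpha-L-iduronidase), Naglu (which cuts heparan sulfate) and Hexa (the alpha subunit of beta-hexosaminidase) had log2 changes of 0.21, 0.20 and 0.17. Naglu and Hexa turned to -0.12 and -0.0032 when the trend with GC content was removed. Man2b1, Glb1, Gaa (acid alpha-glucosidase), Gusb (beta-glucuronidase) and Gla (alpha-galactosidase A) lay between -0.066 and 0.019.

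Sulfatases remove sulfate groups from glycosaminoglycans and sulfatide, and the 5 had a median log2 change of -0.0039 with a wide range. Sgsh, on chromosome 11, read 2.26, 1.97, 2.17, 1.18, 2.08 and 2.20 CPM in wildtype and 1.33, 1.30, 1.89, 1.49, 1.41, 1.13, 1.41 and 0.925 CPM in APPko. All APPko libraries lay below 5 of the wildtype libraries, and wildtype library 4 alone overlapped them. The log2 change was -0.53 ± 0.21 (SE; edgeR adjusted p = 0.15), the most negative of the 44, and it was negative in all 27 other settings, from -0.78 to -0.30. At under 3 CPM, and with 21.6% of its exon bases overlapping Card14 on the opposite strand, this is a low and partly shared signal. Arsa had a log2 change of 0.25 that fell to 0.0079 without wildtype libraries 2 and 3. Galns had 0.12, and 0.0032 without those libraries, while Ids and Arsb had -0.0039 and -0.16.

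The lipid group had 2 of 6 genes higher, with a median of -0.11, and its sign was not stable: without wildtype libraries 2 and 3 it was 4 of 6 with a median of 0.096, and with limma voom 4 of 6 with a median of 0.077. Smpd1 (chr7:105554360-105558389) encodes acid sphingomyelinase, which turns sphingomyelin into ceramide. It read 48.8, 17.1, 25.1, 45.9, 41.0 and 44.7 CPM in wildtype and 54.3, 48.7, 49.5, 46.2, 52.7, 47.7, 50.0 and 41.6 CPM in APPko. Wildtype libraries 2 and 3 held well under the level of the other 12 libraries, which lay between 41.0 and 54.3 CPM. The log2 change of 0.40 ± 0.18 (SE; edgeR adjusted p = 0.21) was 0.12 without them.

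Asah1 (acid ceramidase, which breaks ceramide down) and Psap (prosaposin, the precursor of the saposin activators) were moved in opposite directions by those same libraries. Asah1 read 72.8, 197, 177, 158, 102 and 81.2 CPM in wildtype against 80.3 to 140 CPM in APPko (median 114). Its log2 change of -0.22 became 0.13 without wildtype libraries 2 and 3, which were its 2 highest. Psap read 59.1, 21.1, 21.3, 38.7, 44.3 and 74.9 CPM in wildtype against 27.0 to 45.7 CPM in APPko (median 38.3), and its log2 change of -0.16 became -0.48 without them. The SD was larger in wildtype than in APPko for both, at 21.2 against 6.00 CPM for Psap and 52.7 against 17.5 CPM for Asah1. Galc, Ppt1 (palmitoyl-protein thioesterase 1) and Lipa (acid lipase) had log2 changes of -0.16, -0.050 and 0.051. Galc averaged 30.2 ± 4.91 CPM in wildtype and 27.0 ± 2.15 CPM in APPko. Across all 44 genes, wildtype libraries 2 and 3 were both the lowest of the 6 wildtype libraries for 7 genes (15.9%, against 18.3% of all tested genes) and both the highest for 5 (11.4%, against 17.6%).

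Among the membrane proteins, Cd63 (chr10:128900989-128912822) had the most APPko libraries above every wildtype library. It read 366, 444, 452, 464, 411 and 400 CPM in wildtype and 558, 546, 532, 601, 629, 437, 425 and 481 CPM in APPko. 6 of the 8 APPko libraries lay above every wildtype library, and APPko libraries 6 and 7 lay within the wildtype range. The log2 change was 0.32 ± 0.11 (SE; edgeR adjusted p = 0.11), from 423 ± 37.1 to 526 ± 73.5 CPM, and it ranged from 0.16 to 0.42 over the other settings. DESeq2 called it. Lamp1 and Lamp2, the most used lysosomal membrane markers, were close to level: Lamp1 had 184 ± 23.6 against 177 ± 25.0 CPM, with a 95% interval of -0.30 to 0.17 for the log2 change, and Lamp2 had 247 ± 51.0 against 245 ± 27.0 CPM, with an interval of -0.27 to 0.25. Scarb2, the receptor that carries glucocerebrosidase, Laptm4b, the calcium channel gene Mcoln1 and Laptm4a had log2 changes of 0.096, 0.11, -0.11 and -0.21. Laptm4a averaged 56.6 ± 9.76 CPM in wildtype and 48.7 ± 4.26 CPM in APPko. Grn (progranulin, the luminal glycoprotein, whose loss causes lysosomal disease of neurons) had 65.1 ± 9.60 against 61.1 ± 9.99 CPM, a log2 change of -0.090.

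Of the sorting and transcription genes, Tfeb (chr17:47737030-47792419) read 0.269, 0.321, 0.530, 0.845, 0.676 and 0.990 CPM in wildtype and 1.04, 0.867, 1.26, 0.640, 1.30, 0.944, 0.871 and 0.740 CPM in APPko. The lowest APPko library exceeded 3 of the wildtype libraries, and 3 of 8 APPko libraries exceeded all of them. The log2 change of 0.65 ± 0.32 (SE; edgeR adjusted p = 0.26) had a 95% interval from -0.015 to 1.32, and was 0.45 without wildtype libraries 2 and 3. Its lowest library held 5 counts, so this is the least precise of the 44 changes. The sorting genes Gnptab, which tags enzymes with mannose 6-phosphate, and its receptors M6pr and Igf2r had log2 changes of 0.087, 0.058 and -0.14, each with an interval that included 0. The 13 genes with CACGTG in the promoter had a median log2 change of 0.014 (7 higher) and the 25 matched genes without it 0.087 (15 higher).

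The 6 microglia-enriched genes had a median log2 change of 0.20, and 1 of them, Ctsz, had an unadjusted p under 0.05. Ctsz (chr2:174427493-174439039), encoding the carboxypeptidase cathepsin Z, read 66.2, 55.2, 82.6, 79.8, 68.1 and 81.6 CPM in wildtype and 94.5, 114, 75.7, 112, 83.9, 73.9, 78.8 and 81.0 CPM in APPko. 4 of the 8 APPko libraries lay above every wildtype library and the other 4 within the wildtype range, for a log2 change of 0.30 ± 0.13 (SE; edgeR adjusted p = 0.18). The change was 0.050 with the trend over GC content removed and 0.12 with the microglia marker covariate. Ctss, the most abundant of the 44 per kb of exon though not in CPM, read 321, 518, 486, 436, 324 and 288 CPM in wildtype. In APPko it read 340 to 538 CPM (median 396), a log2 change of 0.088 ± 0.15 (SE; edgeR adjusted p = 0.80). Without wildtype libraries 2 and 3, its 2 highest wildtype libraries, the change was 0.30 and was not called. That fit called 19 of 23764 genes higher. Cd68, a Lamp family member of macrophages, ranged from 46.1 to 121 CPM in wildtype and from 65.8 to 125 CPM in APPko (log2 change 0.24, and 0.44 without wildtype libraries 2 and 3).

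The other 3 microglia-enriched genes overlapped broadly between the genotypes. Ctsh, an aminopeptidase, read 24.9, 30.1, 35.7, 37.2, 26.1 and 26.5 CPM in wildtype and 35.2, 46.1, 31.2, 40.6, 32.6, 25.9, 26.8 and 38.4 CPM in APPko, a log2 change of 0.20 ± 0.14 (SE; edgeR adjusted p = 0.44). Laptm5, a lysosomal membrane protein of blood cells and microglia, read 24.4, 12.6, 15.6, 28.8, 22.4 and 31.8 CPM against 19.0 to 32.2 CPM in APPko (median 26.9). Its lowest values were those of wildtype libraries 2 and 3, and its log2 change of 0.20 became -0.044 without them. Ctsc, which activates serine proteases, read 27.6, 60.7, 67.1, 61.0, 37.6 and 26.8 CPM against 35.4 to 58.6 CPM in APPko (median 40.9). Here wildtype libraries 2 and 3 were among the 3 highest of all, and the log2 change of -0.093 became 0.20 without them.

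Some microglia markers differed between the genotypes. The summed level of 20 markers outside the 44 genes was 772 ± 155 CPM (SD, n = 6; 666 to 1077) in wildtype and 1078 ± 190 CPM (n = 8; 871 to 1434) in APPko, a ratio of means of 1.40. 5 of 6 wildtype libraries lay below every APPko library. Of the 20, 14 had a higher fitted level, against 48.3% of all tested genes. Tyrobp and C1qb were called higher (edgeR adjusted p = 0.028 and 0.047, log2 changes of 1.07 and 0.92), where 0.944% of all genes were. The homeostatic markers Cx3cr1, Tmem119 and P2ry12 had log2 changes of -0.032, 0.073 and -0.26. The C1q chains, Tyrobp and Fcer1g, a split made after their values were seen, summed to 399 ± 149 CPM in wildtype and 691 ± 124 CPM in APPko (ratio 1.73), and the other 15 markers to 373 ± 35.0 and 386 ± 71.99 CPM (ratio 1.04), so that 5 markers carried most of the difference in the sum. Within the other 15 the log2 changes went both ways, from -0.50 for Itgam to 0.55 for Trem2 (edgeR adjusted p = 0.17 and 0.055). No microglia marker was at 0, the least abundant being Spi1 at 2.21 ± 0.56 CPM in wildtype. The summed level of the 6 microglia-enriched lysosomal genes was 650 ± 136 CPM (510 to 808) in wildtype and 712 ± 119 CPM (575 to 885) in APPko, a ratio of 1.10, and that of the 38 ubiquitous genes 3904 ± 358 and 4399 ± 409 CPM, a ratio of 1.13. The ubiquitous sum is weighted to abundant genes, as Ctsb went from 823 to 1074 CPM, Cd63 from 423 to 526 and Ctsd from 220 to 319. The median log2 change of the 38 was only 0.054, with 22 higher and 16 lower. With the microglia marker level as a covariate the median log2 change was -0.0060 for the microglia-enriched and -0.017 for the ubiquitous genes, and no member was called. That covariate differs between the groups, and in that model 6 genes of the whole table were called higher and 5 lower. The part of microglia abundance in the lysosomal levels was not tested.

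**Figure D5:**
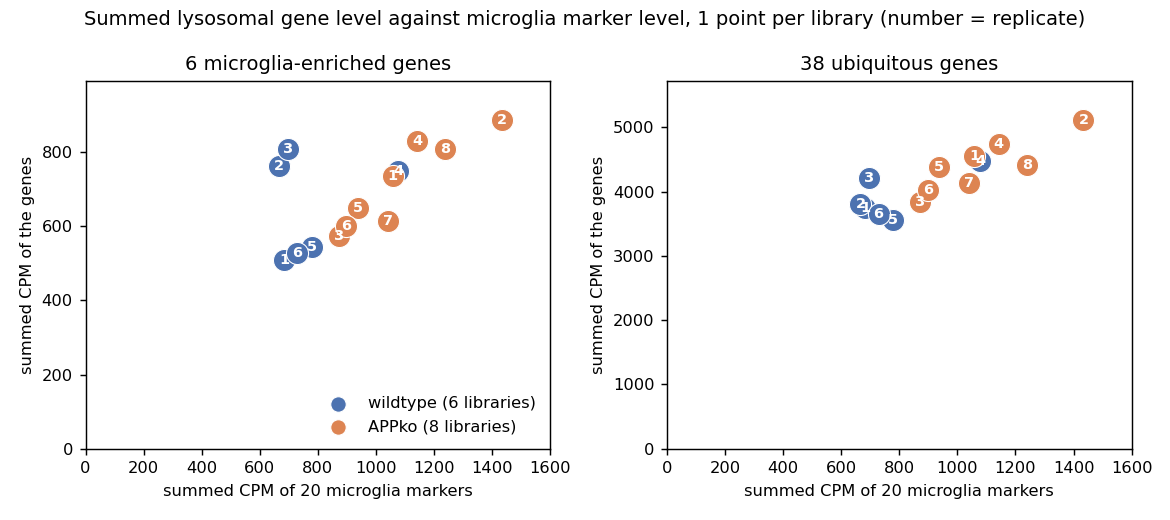
Summed CPM of the 6 microglia-enriched (left) and 38 ubiquitous (right) lysosomal genes against the summed CPM of 20 microglia markers, 1 numbered point per library. APPko libraries lie to the right of 5 of the 6 wildtype libraries, and wildtype libraries 2 and 3 combine marker sums of 666 and 696 CPM with microglia-enriched sums of 762 and 808 CPM. Ctss made 518 and 486 CPM of these microglia-enriched sums.

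Wildtype libraries 2 and 3 did not follow the order of the other libraries. With library 1 they had the 3 lowest marker sums (666, 696 and 684 CPM), yet libraries 2 and 3 had the 2 highest sums of microglia-enriched lysosomal genes in wildtype. These were 762 and 808 CPM against 748 CPM in library 4, and Ctss made 518 and 486 CPM of them. Of the 6 genes, only Ctss had its 2 highest wildtype values in libraries 2 and 3, while Laptm5 had its 2 lowest there. No gene of the astrocyte, oligodendrocyte, neuron, vascular or border macrophage marker lists was called, and the summed astrocyte markers were 7310 ± 944 CPM in wildtype and 6969 ± 923 CPM in APPko. The 6 border macrophage markers all had negative fitted changes, none of them called, with overlapping sums of 35.0 to 97.1 CPM in wildtype and 42.1 to 67.6 CPM in APPko. Among the smallest adjusted p-values of these lists in edgeR were 0.10 for Gja1 and 0.21 for Gfap among 10 astrocyte markers, 0.64 for Cldn11 among 8 oligodendrocyte markers, and 0.12 for both Stx1a and Tubb3 among 10 granule cell and neuron markers. They were 0.070 for Pdgfrb and 0.18 for Rgs5 among 10 vascular and fibroblast markers, and 0.13 for Mrc1 and 0.23 for Lyve1 among the border macrophage markers. Markers of each of these cell types were thus detected in the tissue, with wildtype means from 0.58 CPM (Cldn5, of endothelium) to 2342 CPM (Snap25, of neurons). Granule cell and neuron markers summed to 4708 ± 1001 CPM in wildtype and 3988 ± 330 CPM in APPko, and were highest in wildtype libraries 2 and 3.

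The 4 libraries whose column header ends in m could not be compared on their own, since only 1 of them is APPko. In the 10 libraries ending in f (3 wildtype, 7 APPko), edgeR called 5 of the 44 genes higher, namely Ctsa, Laptm5, Smpd1, Neu1 and Tfeb, where 7.10% of all genes were called higher. Wildtype libraries 2 and 3 are 2 of the 3 wildtype libraries in that comparison. A difference in the genotype effect between the suffixes (interaction term) was called for none of the 44 genes and for 411 of all 22150, and rests on a single APPko library ending in m. What the suffix stands for is not given in the labels.

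Other genes of the lysosomal pathway were read from 4 further lists. Of 26 other hydrolases and cofactors, none was called, 8 were higher, and the median log2 change was -0.068. Acp2, a lysosomal acid phosphatase, averaged 79.9 ± 18.5 against 63.5 ± 6.68 CPM (edgeR adjusted p = 0.15). Of 21 other membrane proteins and transporters, 20 were tested and none called, with 13 higher and a median of 0.15. Ostm1, a partner of the chloride transporter ClC-7, had a log2 change of -0.42, and the lipid transporter gene Abca2 one of 0.60 (edgeR adjusted p = 0.12 for each). None of the 20 subunits of the V-ATPase, the proton pump that acidifies the lysosome, was called, with 12 higher and a median of 0.11. Atp6v0b had 219 ± 70.4 against 318 ± 34.5 CPM (edgeR adjusted p = 0.078) and Tcirg1 3.51 ± 0.50 against 4.94 ± 0.93 CPM (edgeR adjusted p = 0.10).

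The list of TFEB relatives, nutrient sensing and autophagy genes held the only call among the 4 lists. These lists held 26, 20, 20 and 21 tested genes, and of all tested genes 0.944% were called higher and 1.41% lower. Lamtor2 is a subunit of the Ragulator complex that anchors mTORC1 to the lysosome. It fell from 202 ± 87.8 CPM (122 to 331) in wildtype to 123 ± 9.85 CPM (108 to 135) in APPko, with overlapping ranges (log2 change -0.72 ± 0.19 SE, edgeR adjusted p = 0.0495). Its partner Lamtor1 had the opposite sign, with 50.1 ± 18.6 against 77.3 ± 9.05 CPM (edgeR adjusted p = 0.069), as had the pair Gabarap (log2 change 0.35) and Gabarapl1 (-0.28) of autophagosome proteins. The TFEB relatives Tfe3 and Mitf had log2 changes of 0.23 and -0.050. Of the 21 genes of this list 12 were higher, with a median of 0.045.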

How the data were processed

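Raw gene counts deposited by the authors for 14 libraries were used, 1 count per gene and library. Per the submitters' processing notes, cutadapt 3.5, STAR 2.7.8a and featureCounts 2.0.1 were used, with the builds mm10 and GRCm38. The strand setting of the counting was not stated. The annotation deposited by the authors (GENCODE M25) was an other kind of file, read for names, coordinates and exon lengths. The 44 genes, their roles and the marker and pathway lists were chosen with earlier results of these data known, so no count over them is independent support. Genes were filtered with filterByExpr, scaled by TMM and tested with edgeR 4.0.16 (glmQLFit, robust; R 4.3.3) on all 22150 genes passing, between 6 wildtype and 8 APPko libraries without covariates, adjusted p threshold 0.05. The script was tested on simulated data. Counts differed beyond sampling noise in all 43 pairs of libraries within a group. Values are TMM-scaled CPM; exon-length values divide by kb of merged exon. Alternatives were other scalings, filters, DESeq2 1.42.0, limma 3.58.1, a replicate block, header suffix, a GC trend (GC known for 97.9% of genes), a microglia covariate and leaving out libraries. Genes chosen for values of single libraries or groups were those with the largest changes in either direction, all microglia-enriched genes, and Tfeb, Lamp1, Lamp2 and Grn. The most and least abundant were given at least by their level per kb in wildtype. Tpp1 and Neu1, by unadjusted p, were added after their values were seen. Reads are not counted by molecule, so precision covers counting and library spread together. The values of 2 single genes of the pathway and marker lists are not reported here.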

Additional observations from a re-analysis of the deposited data

Results flagged for a closer look

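In 5 of the 88 groups of libraries checked (44 genes in 2 genotypes), 1 library lay far from the others by Dixon's criterion, where chance gives about 1 in 20 groups, or 4.4. Ctsa was at 142.59 CPM in wildtype library 4 against 49.6 to 82.8 CPM in the other wildtype libraries. Sgsh was at 1.1829 CPM in the same library against 1.97 to 2.26 CPM. Idua was at 34.442 CPM in wildtype library 1 against 24.7 to 27.0 CPM. Galns was at 3.5822 CPM in wildtype library 2 against 6.59 to 7.91 CPM. Mcoln1 was at 23.65 CPM in APPko library 3 against 17.7 to 20.4 CPM in the other APPko libraries.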

How the results depend on the processing

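Limits: wildtype libraries 1 and 4 each decide calls of single lysosomal genes, low genes such as Tfeb and Sgsh rest on few counts, and Tfeb drops out at a mean of at least 1 CPM. The number of the 44 genes called higher, 0, became 2 with DESeq2, 1 with no filter and 5 in the f libraries, and was 0 to 2 without single libraries (1 without wildtype library 1, 2 without wildtype library 4). Of all tested genes, 387 of 22732 were called higher without wildtype library 1 and 735 of 22579 without wildtype library 4. With no filter 304 of 49361 were, and in the main fit 209 of 22150. The number of the 44 genes called lower was 0 in all 27 other settings. 36 of the 44 genes were never called, and 20 had the same sign throughout. The median of the ubiquitous genes was 0.16 with total counts only, and without single libraries 0.0087 to 0.090; that of the microglia-enriched genes was 0.14 to 0.28 without single libraries and 0.087 with the GC trend removed. Total counts only also turned the split of all called genes from 209 higher and 312 lower to 236 higher and 119 lower. The replicate numbers did not pair the libraries (correlations of same-numbered libraries from -0.34 to 0.19, the own number highest for 1 of 6); with the replicate block 0 of the 44 genes were called, with medians of 0.053 and 0.26, and 10 genes of all were higher and 11 lower.

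Log2 changes changed sign as follows, none of them called, and the cause was not tested. Total counts only gave Lamp1 0.044, Lamp2 0.098, Ctsc 0.032, Gaa 0.075, Gla 0.056, Grn 0.0034, Gusb 0.038, Ids 0.087 and Ppt1 0.059. Upper quartile scaling gave Lamp2 0.0075, Gaa 0.00059 and Ids 0.011. Limma voom gave Lamp2 0.12, Ctsc 0.17, Gla 0.095, Man2b1 -0.043, Ppt1 0.082 and Asah1 0.071. No filter gave Lamp2 0.026, Gaa 0.020 and Ids 0.039, and a mean of at least 1 CPM Lamp2 0.0014 and Ids 0.0069. The replicate block gave Ctsc 0.014, Gaa 0.041, Gla 0.019, Man2b1 -0.012 and Psap 0.057. The f libraries gave Ctsl -0.23, Ctss -0.13, Gaa 0.12, Psap 0.25 and M6pr -0.014. Without wildtype libraries 2 and 3 Lamp1 was 0.055, Lamp2 0.16, Ctsc 0.20, Gla 0.20, Laptm5 -0.044, Ppt1 0.11, Scarb2 -0.012 and Asah1 0.13. Removing the GC trend gave Lamp2 0.11, Ctsc 0.047, Ctsf -0.045, Gla 0.013, Glb1 -0.065, Hexa -0.0032, Ids 0.11, Man2b1 -0.024, Naglu -0.12, Ppt1 0.029 and Galns -0.067. The microglia marker covariate gave Ctsh -0.020, Ctss -0.086, Glb1 -0.031, Ids 0.048, Lipa -0.16, Man2b1 -0.11, Galns -0.056 and M6pr -0.034. Without single libraries the ranges that crossed 0 were -0.075 to 0.079 for Lamp2, -0.21 to 0.054 for Ctsc, -0.0025 to 0.15 for Ctsl, -0.050 to 0.056 for Gaa, -0.15 to 0.067 for Gla, -0.030 to 0.059 for Glb1, -0.10 to 0.0039 for Gusb, -0.078 to 0.12 for Ids, -0.015 to 0.17 for Lipa, -0.022 to 0.086 for Man2b1, -0.12 to 0.082 for Ppt1, -0.30 to 0.070 for Psap and -0.011 to 0.19 for Galns.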
